A study of Mus musculus with 6 samples.

Results

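A set of 35 mouse genes of glucose breakdown and of the response to low oxygen was followed in sorted uterine cells. It holds 18 glycolytic enzymes with their isozymes, 3 transporters of glucose and lactate, 8 regulators of the PFKFB and PDK families, and 6 hypoxia genes. Members were picked by gene symbol, and all 35 were found among the 26586 genes of the count table. Of these, 34 had enough reads to be tested, and the muscle mutase Pgam2, with 1, 0 and 0 reads in libraries labelled Axin2+ against 0, 4 and 0 in libraries labelled Axin2-, was not.

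The libraries were made from ribosomal RNA-depleted total RNA of cells sorted out of endometrial epithelial isolates of 3 mice carrying Axin2rtTA and tetOH2BJGFP. In these mice the Axin2 promoter drives an activator that, with doxycycline, turns on a nuclear GFP. Ovaries had been removed at 4 weeks of age; after a rest of 2 weeks the animals received doxycycline, and their uteri were collected 4 days after that, at a labelled age of 6 weeks. The GFP+ cells gave 3 libraries labelled Axin2+ and the GFP- cells 3 labelled Axin2-, numbered by mouse, so that both fractions share the ovariectomy, the transgenes and the drug. The label text also speaks of pooling the cells of the mice, so that the p-values may measure only the spread between libraries of a pool. Library totals ran from 49714402 to 59597315 counted reads. Levels are in CPM, read counts relative to TMM-adjusted library totals, and each group of 3 values runs from mouse 1 to mouse 3.

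Axin2 and the markers of 10 cell types were looked at first. Axin2 itself stood at 165, 243 and 299 CPM in libraries labelled Axin2+, against 369, 357 and 356 CPM in libraries labelled Axin2-, lower where GFP was on, with a log2 fold change of -0.61 ± 0.21 (SE) and an edgeR adjusted p of 0.0710. It passed as lower without the Axin2+ library of mouse 3 (edgeR adjusted p = 0.0290) and with DESeq2 (adjusted p = 0.0338). Directions are therefore those of the libraries as labelled. All 10 epithelial markers were higher in libraries labelled Axin2+, with a summed level of 2402 to 3379.7 CPM in libraries labelled Axin2+, against 209.6 to 299 CPM in libraries labelled Axin2-. All 9 smooth muscle markers and 7 of 8 stromal fibroblast markers were lower there. Their sums were 285 to 460.0 CPM in libraries labelled Axin2+, against 2542 to 6834 CPM in libraries labelled Axin2- for muscle. For stroma they were 3013 to 4106 CPM in libraries labelled Axin2+, against 9442 to 20628 CPM in libraries labelled Axin2-. The libraries labelled Axin2- thus went against the epithelial label. Those labelled Axin2+ were not free of stromal transcripts either. Stromal sums there were 3730, 3013 and 4106 CPM, beside epithelial sums of 3380, 2859 and 2402 CPM. Cell numbers cannot be read from such sums. Of 8 macrophage markers 7 were higher, with sums of 624 to 3510.4 CPM in libraries labelled Axin2+, against 58.5 to 337 CPM in libraries labelled Axin2-; with the mouse as a block only 3 of them passed. Endothelial markers went both ways, with sums of 221 to 308 CPM in libraries labelled Axin2+, against 179 to 225 CPM in libraries labelled Axin2-. Of the 8, 5 passed as higher, while Cdh5, the most abundant, averaged 78.9 ± 20.8 CPM in libraries labelled Axin2+, against 139.7 ± 36.5 CPM in libraries labelled Axin2- (SD, n = 3 each; edgeR adjusted p = 0.0559). With the block 3 endothelial markers were higher, and Cdh5 passed as lower (edgeR adjusted p = 0.00947). Of 5 mesothelial markers Msln, Upk3b and Lrrn4 were higher and Wt1 was lower, with sums of 166 to 471 CPM in libraries labelled Axin2+, against 174 to 224 CPM in libraries labelled Axin2-. Of 5 T cell markers Cd3e and Cd3g were lower, with sums of 2.31 to 22.4 CPM in libraries labelled Axin2+, against 8.88 to 21.3 CPM in libraries labelled Axin2-. Of 3 tested red blood cell markers 2 were lower, with sums of 0.205 to 1.13 CPM in libraries labelled Axin2+, against 1.77 to 7.39 CPM in libraries labelled Axin2-, and no neutrophil marker passed. The block changed no count of the other lists. No marker of these lists was at 0 in all 6 libraries. The part of these cell types in the results below was not tested, and in bulk libraries fewer cells of a type and less RNA per cell cannot be told apart.

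Glycolysis splits glucose into pyruvate, which is either reduced to lactate or passed to mitochondria through pyruvate dehydrogenase. Most steps are run by isozymes from separate genes that differ in tissue use and regulation. Under low oxygen the HIF alpha proteins escape the prolyl hydroxylases that mark them for destruction, pair with ARNT and bind a short DNA element, by which they raise transporters, glycolytic enzymes, PDK1 and vascular signals such as VEGF-A and adrenomedullin. HIF activity is set largely at the protein level, so that the transcripts of the factors do not report it.

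The core of that hypoxia response element is ACGTG or GCGTG, which reads CACGT or CACGC when it lies on the other strand. Promoter windows of 300 bases, from 250 before to 50 after a RefSeq start on GRCm38.p6 (mm10), were found for 33 members, and none for Slc2a3 and Epas1. The element occurred on either strand in the window nearest to the annotated gene start for 26 of the 33, and in any window for 29 of 33 genes. Over all promoters it occurred in 43.8% of 32851 windows and in at least 1 window of 46.7% of genes, so that it is a common string. Shown here are the windows of the called members with the largest fold in each direction, Aldoc and Hk2 (higher in libraries labelled Axin2+) and Adm and Eno2 (lower there), and that of Ldha, which held the most matches and lies at a RefSeq start inside the gene bounds of the annotation. Capitals mark the element, and each sequence runs 5′ to 3′ on the strand of its gene. The windows are Aldoc chr11:78322823-78323122, plus strand; Hk2 chr6:82774405-82774704, minus strand; Ldha chr7:46845554-46845853, plus strand; Adm chr7:110627407-110627706, plus strand; and Eno2 chr6:124769624-124769923, minus strand.
Aldoc: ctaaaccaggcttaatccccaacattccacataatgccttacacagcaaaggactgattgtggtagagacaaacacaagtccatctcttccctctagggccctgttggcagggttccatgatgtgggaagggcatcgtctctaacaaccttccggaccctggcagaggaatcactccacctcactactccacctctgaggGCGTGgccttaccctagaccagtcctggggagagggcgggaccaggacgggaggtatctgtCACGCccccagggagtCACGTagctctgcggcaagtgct
Hk2: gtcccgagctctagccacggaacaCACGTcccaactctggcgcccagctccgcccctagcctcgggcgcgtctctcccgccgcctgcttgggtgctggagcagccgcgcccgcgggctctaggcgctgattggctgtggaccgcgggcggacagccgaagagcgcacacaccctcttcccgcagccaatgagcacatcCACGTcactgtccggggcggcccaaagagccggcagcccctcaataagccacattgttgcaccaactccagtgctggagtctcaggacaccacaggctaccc
Ldha: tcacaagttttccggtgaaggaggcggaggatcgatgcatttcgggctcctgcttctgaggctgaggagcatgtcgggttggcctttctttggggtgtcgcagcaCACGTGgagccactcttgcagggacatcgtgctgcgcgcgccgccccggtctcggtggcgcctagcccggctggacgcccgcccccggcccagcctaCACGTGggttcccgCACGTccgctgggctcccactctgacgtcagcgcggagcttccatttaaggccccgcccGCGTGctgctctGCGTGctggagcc
Adm: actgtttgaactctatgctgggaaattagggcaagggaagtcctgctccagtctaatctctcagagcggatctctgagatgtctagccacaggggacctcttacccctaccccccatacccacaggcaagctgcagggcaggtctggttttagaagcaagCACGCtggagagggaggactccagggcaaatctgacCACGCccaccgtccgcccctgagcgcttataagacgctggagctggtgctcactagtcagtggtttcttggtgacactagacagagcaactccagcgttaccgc
Eno2: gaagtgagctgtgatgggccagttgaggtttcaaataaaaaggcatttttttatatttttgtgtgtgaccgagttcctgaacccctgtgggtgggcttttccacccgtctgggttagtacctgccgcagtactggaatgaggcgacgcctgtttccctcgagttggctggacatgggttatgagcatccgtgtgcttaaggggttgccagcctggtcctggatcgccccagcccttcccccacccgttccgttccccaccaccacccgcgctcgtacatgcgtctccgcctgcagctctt
Ldha held 7 matches, of which 4 lie in 2 copies of the palindrome CACGTG, where the matches of both strands overlap. Aldoc held 3, and Hk2 and Adm 2 each. The letters do not occur in the Eno2 window. A match is a string in this window and was not tested for binding.

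Of the 34 tested members 13 were higher and 5 lower in libraries labelled Axin2+, and 16 did not pass. The test was edgeR's quasi-likelihood test with Benjamini-Hochberg adjustment over 16896 genes, with a threshold of 0.05. Over all genes tested 27.3% passed, 14.5% higher and 12.8% lower. The median log2 fold change of the tested members was 0.38, beside -0.01 over all genes. With library-size scaling, which shifted the median of all genes by 0.17, the members split into 15 higher and 3 lower. Leaving out the Axin2+ library of mouse 2 left 7 higher and 3 lower, and leaving out the Axin2- library of mouse 2 or of mouse 3 left 3 lower. Reads of overlapping genes may be mixed, on opposite strands if counting ignored strand, which the sources used here do not state. In GENCODE M21 a protein-coding gene overlaps Aldoa, Gapdh, Hif1a, Pfkfb1, Pfkfb2, Pfkm, Pfkp and Tpi1, and a gene of the antisense class overlaps Hk1, Hk2, Slc2a1, Pfkfb3, Pfkm, Pdk2, Hif1a, Bnip3 and Adm. For Hif1a and Pfkfb2 a protein-coding one, and for Pfkm the antisense-class Gm26513, lies on the same strand. By role, 1 of 3 transporters rose, 8 of 17 tested enzymes rose and 2 fell, 3 of 8 regulators rose and 1 fell, and 1 of 6 hypoxia genes rose and 2 fell.

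**Figure D1:**
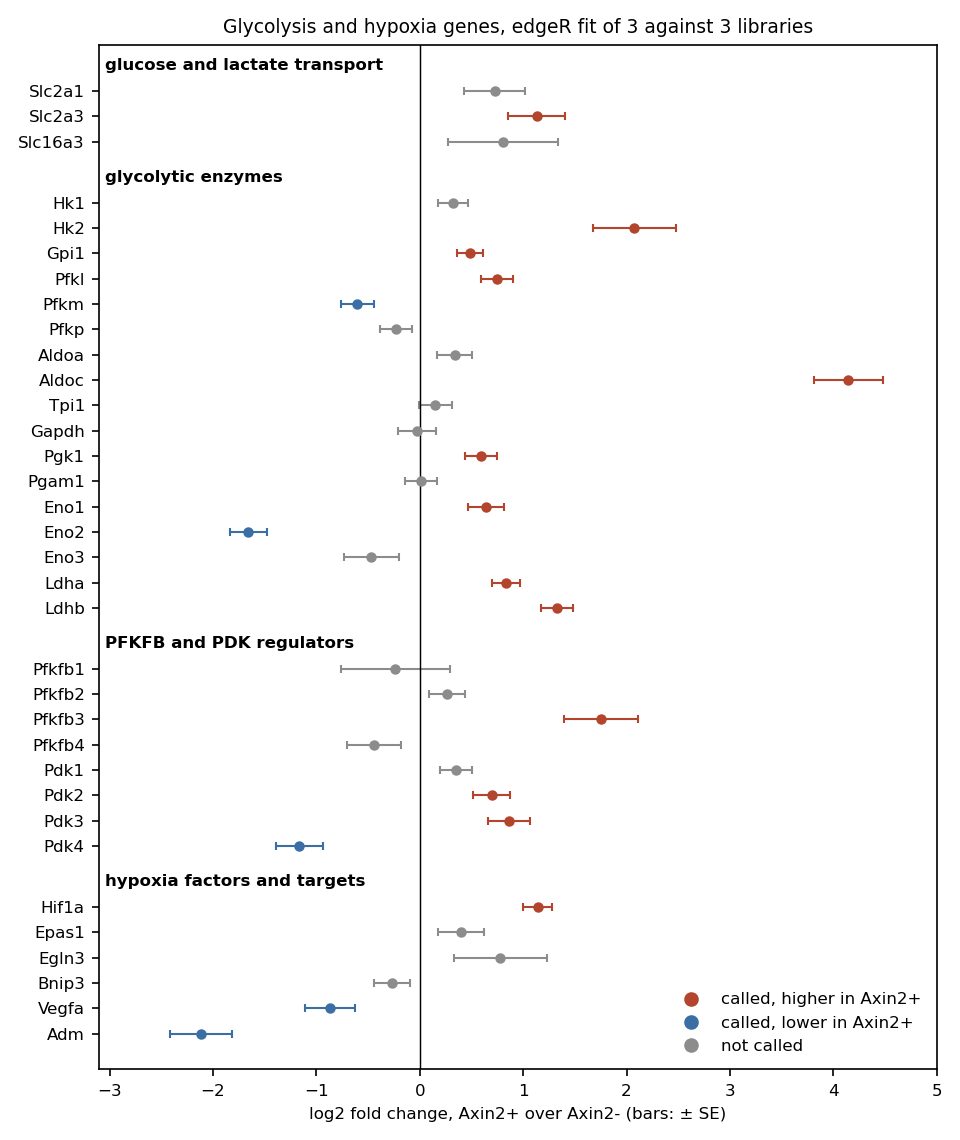
Log2 fold change of the 34 tested members, libraries labelled Axin2+ over those labelled Axin2-, grouped by role, with bars for ± SE and colours for the edgeR call. Aldoc lies farthest to the right at 4.15, and Adm and Eno2 farthest to the left at -2.12 and -1.66.

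**Figure D2:**
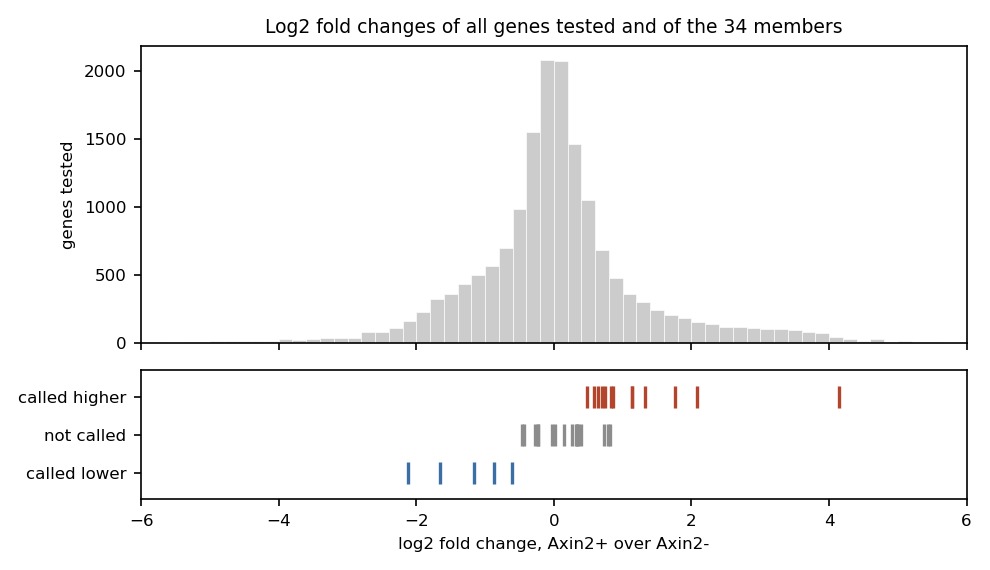
Top, number of all 16896 genes tested per bin of log2 fold change, with 80 genes outside the plotted range. Bottom, each of the 34 tested members as a tick, split by call; the 13 called higher lie between 0.49 and 4.15 and the 5 called lower between -2.12 and -0.60.

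Glucose enters the cell through facilitative transporters, and lactate leaves by a monocarboxylate carrier. Slc2a3, the high-affinity transporter GLUT3 (chr6:122727809-122801640, minus strand), stood at 76.1, 41.5 and 92.6 CPM in libraries labelled Axin2+, against 30.0, 33.4 and 32.4 CPM in libraries labelled Axin2-. The groups did not overlap, with a log2 fold change of 1.13 ± 0.27 (SE) and an edgeR adjusted p of 0.0226. It did not pass without the Axin2- libraries of mice 1, 2 and 3 in turn (0.0709, 0.0577 and 0.0725). Slc2a1, the widely used transporter GLUT1, was measured at 42.5, 30.4 and 34.5 CPM in libraries labelled Axin2+, against 23.3, 12.9 and 28.7 CPM in libraries labelled Axin2-. Its groups did not overlap either, but at 0.73 ± 0.29 (log2 fold change ± SE) it missed the threshold (edgeR adjusted p = 0.108); library-size scaling made it pass (0.0462). For Slc16a3, the lactate exporter MCT4, the values were 11.7, 7.04 and 4.43 CPM in libraries labelled Axin2+, against 6.45, 1.82 and 4.94 CPM in libraries labelled Axin2-; the groups overlapped and the difference did not pass (edgeR adjusted p = 0.298). The summed macrophage markers were 3510.4, 1955 and 624 CPM in libraries labelled Axin2+, against 242, 58.5 and 337 CPM in libraries labelled Axin2-. Like Slc2a3, these sums did not overlap between fractions. Among libraries labelled Axin2+ both were higher in mouse 1 than in mouse 2, but the sum was lowest in mouse 3, where Slc2a3 was highest. The part of macrophages in the Slc2a3 level was not tested.

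Hexokinase traps glucose as its phosphate. Hk2, the inducible isozyme of insulin-sensitive tissue (chr6:82725025-82774454, minus strand), stood at 68.8, 38.1 and 66.6 CPM in libraries labelled Axin2+, against 18.1, 6.87 and 16.2 CPM in libraries labelled Axin2-, 4.22-fold higher by the fit. Every library labelled Axin2+ lay above every library labelled Axin2-, and mouse 2 was lowest in both fractions. The test gave a log2 fold change of 2.08 ± 0.40 (SE) and an edgeR adjusted p of 0.00975. Hk1, the widely expressed isozyme, was at 136, 142 and 118 CPM in libraries labelled Axin2+, against 121, 104 and 90.9 CPM in libraries labelled Axin2-; these groups overlapped, and it did not pass (edgeR adjusted p = 0.134). Gpi1, the isomerase of the next step, was higher at 171, 186 and 149 CPM in libraries labelled Axin2+, against 119, 115 and 127 CPM in libraries labelled Axin2-, with a log2 fold change of 0.49 ± 0.12 (SE) and an edgeR adjusted p of 0.0254. This difference of 1.4-fold did not pass with the mouse as a block (0.0593) or without the Axin2+ libraries of mice 1 and 2 in turn (0.0549 and 0.106) or the Axin2- libraries of mice 1 and 2 in turn (0.0659 and 0.0600). The processed pseudogene Gm1840 matched Gpi1 at 98.7% identity over 1046 bases, and reads shared with it may be lost or misplaced.

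Phosphofructokinase, which commits sugar to glycolysis, changed in opposite directions by isozyme. Pfkl, the liver-type gene (chr10:77986947-78010083, minus strand), rose, at 86.5, 84.9 and 66.2 CPM in libraries labelled Axin2+, against 53.7, 45.3 and 42.5 CPM in libraries labelled Axin2-, with a log2 fold change of 0.75 ± 0.15 (SE) and an edgeR adjusted p of 0.0120. It did not pass without the Axin2+ library of mouse 2 (0.0533). Pfkm, the muscle-type gene (chr15:98092589-98132451, plus strand), fell, at 24.0, 27.4 and 31.1 CPM in libraries labelled Axin2+, against 36.8, 41.0 and 47.5 CPM in libraries labelled Axin2-. In each fraction mouse 3 was highest, and the groups did not overlap; the test gave a log2 fold change of -0.60 ± 0.16 (SE) and an edgeR adjusted p of 0.0298. Pfkm did not pass with library-size scaling (0.0814), nor without the Axin2+ libraries of mice 1 and 2 in turn (0.0741 and 0.101) or the Axin2- libraries of mice 2 and 3 in turn (0.0581 and 0.0885). The genes that overlap it are Senp1, a SUMO protease on the opposite strand, and Gm26513 on the same strand. Pfkp, the platelet-type gene, overlapped between fractions at 31.0, 26.0 and 22.7 CPM in libraries labelled Axin2+, against 31.8, 29.1 and 32.5 CPM in libraries labelled Axin2- and did not pass (edgeR adjusted p = 0.313).

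Aldolase cuts the sugar into triose phosphates. Aldoc, the brain-type aldolase (chr11:78322968-78327781, plus strand), had the largest change of all members, at 16.9, 19.1 and 26.0 CPM in libraries labelled Axin2+, against 0.992, 1.63 and 0.865 CPM in libraries labelled Axin2-, which is 17.7-fold by the fit. No library came near the other fraction, and the call held in 18 of 18 other settings, with log2 fold changes from 3.79 to 4.53; the main fit gave a log2 fold change of 4.15 ± 0.33 (SE) and an edgeR adjusted p of 0.000405. Aldoa, the muscle and general aldolase, stood at 328, 270.0 and 239 CPM in libraries labelled Axin2+, against 243, 234 and 185 CPM in libraries labelled Axin2-, and did not pass (edgeR adjusted p = 0.181).

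Of the genes from triose phosphate to phosphoglycerate only Pgk1 passed. Tpi1, the triose phosphate isomerase, was at 104, 93.2 and 88.3 CPM in libraries labelled Axin2+, against 90.5, 99.0 and 68.1 CPM in libraries labelled Axin2-, and Gapdh, the dehydrogenase often taken as a reference transcript, at 169, 134 and 142 CPM in libraries labelled Axin2+, against 138, 192 and 124 CPM in libraries labelled Axin2-. Pgam1, the general mutase, was at 24.1, 20.0 and 18.6 CPM in libraries labelled Axin2+, against 21.7, 21.4 and 19.1 CPM in libraries labelled Axin2-. For these genes the groups overlapped, and none passed (edgeR adjusted p = 0.525, 0.928 and 0.963). The sign of Gapdh and Pgam1 changed with the scaling or the libraries used. Pgk1, the kinase of the first ATP-yielding step (chrX:106187100-106203699, plus strand), was higher at 35.6, 29.4 and 35.2 CPM in libraries labelled Axin2+, against 24.3, 23.1 and 19.3 CPM in libraries labelled Axin2-, with a log2 fold change of 0.59 ± 0.15 (SE) and an edgeR adjusted p of 0.0288. It did not pass with the mouse as a block (0.0554) or without the Axin2+ libraries of mice 1, 2 and 3 in turn (0.0713, 0.0535 and 0.0766) or the Axin2- libraries of mice 2 and 3 in turn (0.0527 and 0.0722). GENCODE M21 transcripts of 77 other genes matched Gapdh at 95% identity or more over at least 300 bases, most of them processed pseudogenes, and 4 matched Pgk1 so, 1 Tpi1 and 1 Pgam1. Reads shared with such copies may be lost or misplaced, so the levels of these genes are uncertain.

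Enolase, like phosphofructokinase, moved by isozyme. Eno2, known as neuron-specific enolase (chr6:124760053-124769673, minus strand), fell, at 11.1, 15.1 and 13.4 CPM in libraries labelled Axin2+, against 48.7, 36.6 and 39.8 CPM in libraries labelled Axin2-. The groups were far apart, 3.15-fold by the fit, with a log2 fold change of -1.66 ± 0.18 (SE) and an edgeR adjusted p of 0.00107, and the call held in 18 of 18 other settings. Summed neural markers spanned 4.15 to 6.35 CPM in libraries labelled Axin2+, against 2.59 to 8.63 CPM in libraries labelled Axin2-, and none of 3 tested passed. Eno1, the general alpha enolase (chr4:150236721-150248879, plus strand), rose, at 168, 163 and 116 CPM in libraries labelled Axin2+, against 86.1, 108 and 92.7 CPM in libraries labelled Axin2-, with a log2 fold change of 0.64 ± 0.17 (SE) and an edgeR adjusted p of 0.0316. Its call was lost without the Axin2+ libraries of mice 1 and 2 in turn (0.0748 and 0.110) or the Axin2- libraries of mice 1 and 3 in turn (0.0933 and 0.0866). The Eno1 retrogene copy, listed as Gm5506 and 99.5% identical over 1736 aligned bases, had 995, 100 and 106 reads in libraries labelled Axin2+ against 700, 466 and 10 in libraries labelled Axin2-. Adding them to Eno1 gave 185, 164 and 118 CPM in libraries labelled Axin2+ against 99.7, 116 and 92.9 CPM in libraries labelled Axin2-, and these still did not overlap. The processed pseudogenes Gm4735 and Gm5855 matched Eno1 too, at 99.6% and 96.3% identity, and are not in these sums. Eno3, the muscle enolase, was low at 5.83, 4.7 and 7.33 CPM in libraries labelled Axin2+, against 8.44, 6.82 and 9.45 CPM in libraries labelled Axin2- and did not pass (edgeR adjusted p = 0.227).

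Lactate dehydrogenase interconverts pyruvate and lactate, and transcripts of both common subunits were higher in libraries labelled Axin2+. Ldhb, the heart-type subunit (chr6:142490249-142507957, minus strand), stood at 158, 179 and 202 CPM in libraries labelled Axin2+, against 59.9, 78.3 and 76.8 CPM in libraries labelled Axin2-, 2.5-fold higher, with a log2 fold change of 1.32 ± 0.15 (SE) and an edgeR adjusted p of 0.00135. Ldha, the muscle-type subunit and a textbook HIF target (chr7:46841475-46855627, plus strand), stood at 167, 159 and 131 CPM in libraries labelled Axin2+, against 93.5, 84.6 and 77.9 CPM in libraries labelled Axin2-, 1.78-fold higher, with a log2 fold change of 0.84 ± 0.13 (SE) and an edgeR adjusted p of 0.00483. Neither pair of groups overlapped. Processed pseudogenes matched Ldha in 3 cases and Ldhb in 1. Mouse 3 was lowest for Ldha and highest for Ldhb among libraries labelled Axin2+.

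**Figure D3:**
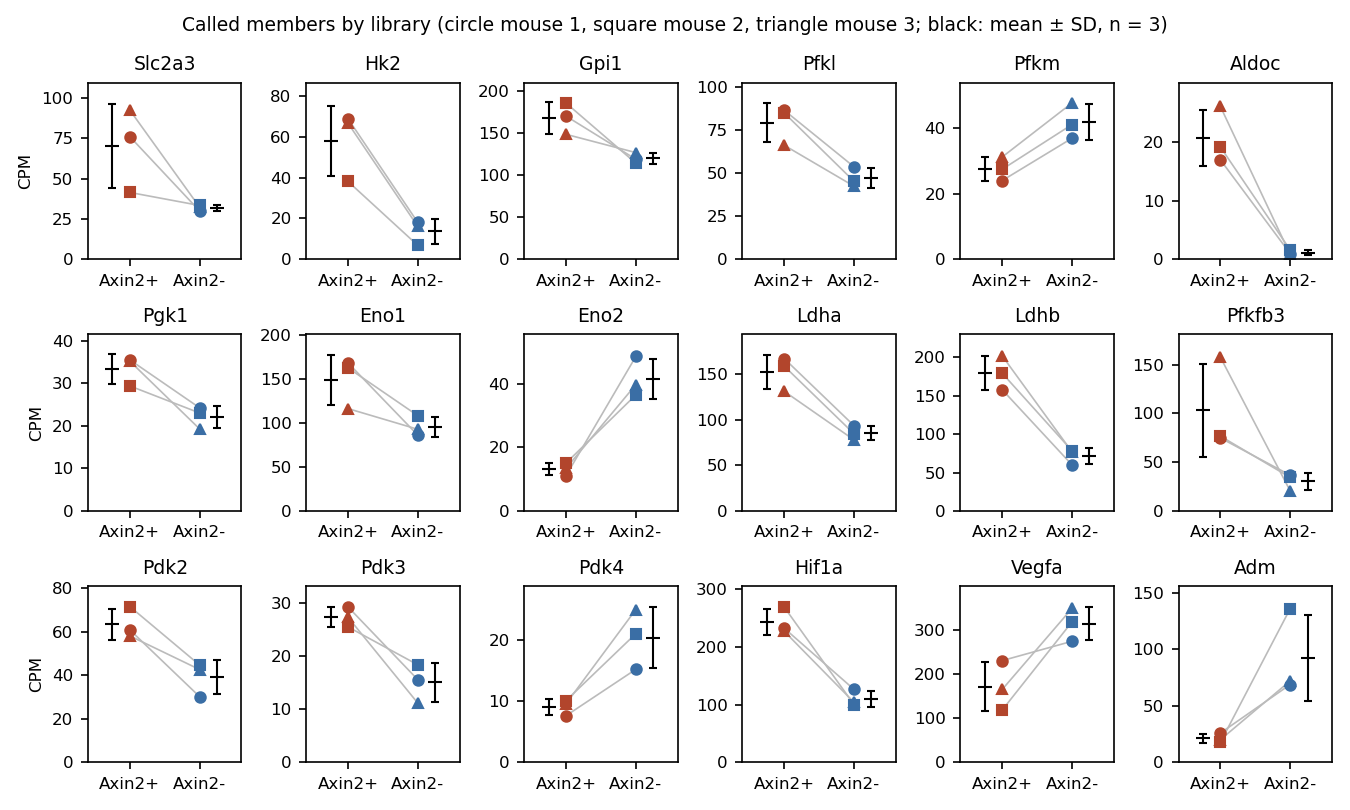
CPM of the 18 called members in each library, axes from 0, with mouse number marked by symbol, grey lines joining the libraries of the same mouse number and black bars for mean ± SD (n = 3). In every panel the libraries labelled Axin2+ (left) and those labelled Axin2- (right) do not overlap. The panels were picked by the calls made on these same libraries, so this separation is no further evidence for them.

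The PFKFB enzymes make and break the sugar bisphosphate that activates phosphofructokinase. Pfkfb3, the isozyme with the strongest bias toward making it (chr2:11471433-11554077, minus strand), rose 3.37-fold, at 74.9, 76.8 and 158 CPM in libraries labelled Axin2+, against 36.7, 34.4 and 20.6 CPM in libraries labelled Axin2-. Mouse 3 had the highest value among libraries labelled Axin2+ and the lowest among libraries labelled Axin2-, and the test gave a log2 fold change of 1.75 ± 0.36 (SE) and an edgeR adjusted p of 0.0118. The other isozymes overlapped between fractions. Pfkfb2, the heart-type isozyme, was at 35.2, 35.7 and 33.7 CPM in libraries labelled Axin2+, against 26.4, 24.5 and 36.2 CPM in libraries labelled Axin2-. Pfkfb4 was at 19.5, 16.5 and 11.2 CPM in libraries labelled Axin2+, against 20.5, 16.8 and 26.9 CPM in libraries labelled Axin2-. Pfkfb1, the liver-type isozyme, was low, at 0.518, 0.529 and 0.838 CPM in libraries labelled Axin2+, against 0.68, 0.717 and 0.824 CPM in libraries labelled Axin2-. None of these passed (edgeR adjusted p = 0.293, 0.249 and 0.775).

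The pyruvate dehydrogenase kinases shut the entry of pyruvate into mitochondrial oxidation, and their transcripts moved both ways. Pdk4, which is induced by fasting and fatty acids in other tissues (chr6:5483351-5496309, minus strand), fell, at 7.66, 10.1 and 9.62 CPM in libraries labelled Axin2+, against 15.3, 21.1 and 25.1 CPM in libraries labelled Axin2-, 2.24-fold by the fit, with a log2 fold change of -1.16 ± 0.23 (SE) and an edgeR adjusted p of 0.0104. Pdk3 (chrX:93764607-93832201, minus strand) rose, at 29.2, 25.4 and 27.3 CPM in libraries labelled Axin2+, against 15.6, 18.3 and 11.2 CPM in libraries labelled Axin2-, with a log2 fold change of 0.86 ± 0.20 (SE) and an edgeR adjusted p of 0.0204. Pdk2, the most widely expressed kinase of the family (chr11:95026258-95041354, minus strand), rose as well, at 60.8, 71.5 and 58.1 CPM in libraries labelled Axin2+, against 30.2, 44.7 and 42.6 CPM in libraries labelled Axin2-, with a log2 fold change of 0.70 ± 0.18 (SE) and an edgeR adjusted p of 0.0267. Pdk3 did not pass without the Axin2+ library of mouse 2 (0.0562) or the Axin2- library of mouse 1 (0.0547), and Pdk2 did not without the Axin2+ library of mouse 2 (0.10) or the Axin2- library of mouse 3 (0.0511). Pdk1, a HIF target, was at 21.7, 21.9 and 17.6 CPM in libraries labelled Axin2+, against 15.0, 16.3 and 16.6 CPM in libraries labelled Axin2-. These groups did not overlap, yet the difference of 1.28-fold did not pass (edgeR adjusted p = 0.133), except with library-size scaling (0.0423).

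Among the hypoxia genes the factor rose and vascular targets fell. Hif1a, the oxygen-regulated subunit found in most cells (chr12:73901375-73947530, plus strand), stood at 233, 269 and 227 CPM in libraries labelled Axin2+, against 127, 100.3 and 104 CPM in libraries labelled Axin2-, 2.2-fold higher, with a log2 fold change of 1.14 ± 0.14 (SE) and an edgeR adjusted p of 0.00161. The groups were well apart and the call held in 18 of 18 other settings. Epas1, the HIF-2 alpha subunit first described in endothelium, overlapped at 63.1, 114 and 79.4 CPM in libraries labelled Axin2+, against 59.7, 59.9 and 75.1 CPM in libraries labelled Axin2- and did not pass (edgeR adjusted p = 0.228). Its highest library, that labelled Axin2+ of mouse 2, was also the highest in summed endothelial markers, at 308 CPM. The endothelial marker Pecam1 was highest there too, at 64.4 CPM. Cdh5 was not, at 88.3 CPM against 98.9, 169 and 151 CPM in libraries labelled Axin2-. The part of endothelium in the Epas1 level was not tested. Adm, the vasodilator peptide adrenomedullin (chr7:110627661-110629820, plus strand), fell 4.34-fold, at 25.9, 17.7 and 20.0 CPM in libraries labelled Axin2+, against 68.8, 136 and 72.1 CPM in libraries labelled Axin2-. The library labelled Axin2- of mouse 2 was the highest and no library labelled Axin2+ reached the others, with a log2 fold change of -2.12 ± 0.30 (SE) and an edgeR adjusted p of 0.00313. Vegfa, the growth factor of blood vessels (chr17:46016993-46032369, minus strand), fell too, at 229.8, 118 and 165 CPM in libraries labelled Axin2+, against 273, 317 and 348 CPM in libraries labelled Axin2-, with a log2 fold change of -0.87 ± 0.24 (SE) and an edgeR adjusted p of 0.0349. Its groups did not overlap, but it did not pass with the mouse as a block (0.0559), with library-size scaling (0.0597), or without the Axin2+ libraries of mice 2 and 3 in turn (0.0884 and 0.0836) or the Axin2- libraries of mice 1, 2 and 3 in turn (0.0661, 0.0785 and 0.115). The smooth muscle and stromal marker sums were lower in the same libraries as Adm and Vegfa. In the library labelled Axin2- of mouse 2, where Adm was highest, both sums were the lowest of that fraction, 2542 and 9442 CPM. The stromal markers went both ways there. In libraries labelled Axin2-, Col1a1 stood at 4612, 761 and 4712 CPM and Col3a1 at 6913, 1260 and 4873 CPM. Dcn stood at 2559, 4045 and 1860 CPM and Lum at 424, 519 and 347 CPM in the same libraries. The part of stroma in the Adm level was not tested. Egln3, a HIF-induced prolyl hydroxylase, was at 6.71, 3.85 and 4.3 CPM in libraries labelled Axin2+, against 4.22, 1.45 and 2.99 CPM in libraries labelled Axin2-, and Bnip3, a mitophagy receptor, at 19.5, 21.3 and 19.7 CPM in libraries labelled Axin2+, against 21.8, 29.8 and 21.3 CPM in libraries labelled Axin2-. Their groups overlapped and neither passed (edgeR adjusted p = 0.240 and 0.291). Near-identical transcripts of 4 other genes matched Bnip3, so its level is uncertain.

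The makeup of the isozyme families was then described by dividing CPM by exon length (kb), which puts genes of a family on a common scale. These shares are descriptions with no test. Of enolase transcripts Eno2 made 5.4, 7.47 and 8.71% in libraries labelled Axin2+, against 30.7, 21.8 and 25.1% in libraries labelled Axin2-, while Eno1 made 86.9 ± 3.61% against 65.0 ± 5.63% (means ± SD of the libraries labelled Axin2+ and Axin2-, n = 3 each). The enolase sum was 67.0 ± 10.3 CPM per kb in libraries labelled Axin2+, against 57.8 ± 1.9 CPM per kb in libraries labelled Axin2-, and its groups overlapped. Of phosphofructokinase transcripts Pfkl made 60.4, 60.0 and 53.1% in libraries labelled Axin2+, against 42.3, 37.3 and 32.7% in libraries labelled Axin2-, and Pfkm 25.3 ± 5.24% against 41.2 ± 4.82%. The family sum was again overlapping, at 36.6 ± 2.76 CPM per kb in libraries labelled Axin2+, against 33.8 ± 1.12 CPM per kb in libraries labelled Axin2-.

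In other families the sums differed as well. Hk2 made 30.5, 18.9 and 32.8% in libraries labelled Axin2+, against 11.4, 5.38 and 13.3% in libraries labelled Axin2- of the hexokinase transcripts of Hk1 and Hk2, whose sum was 37.5 ± 2.39 CPM per kb in libraries labelled Axin2+, against 24.2 ± 3.53 CPM per kb in libraries labelled Axin2-. Aldoc, for all its fold change, made only 3.07, 4.15 and 6.25% in libraries labelled Axin2+, against 0.249, 0.425 and 0.286% in libraries labelled Axin2- of the aldolase transcripts, so that Aldoa carried the bulk in every library. The lactate dehydrogenase sum was 218 ± 7.89 CPM per kb in libraries labelled Axin2+, against 99.98 ± 4.73 CPM per kb in libraries labelled Axin2-, 2.18 times as high, while the share of Ldhb overlapped, at 57.9, 62.1 and 69.1% in libraries labelled Axin2+, against 48.2, 57.4 and 58.9% in libraries labelled Axin2-. Pfkfb3 made 51.4, 53.5 and 73.4% in libraries labelled Axin2+, against 36.7, 38.3 and 19.6% in libraries labelled Axin2- of the PFKFB transcripts, and Pdk4 5.5 ± 0.77% against 17.5 ± 2.86% of the PDK transcripts, by mean ± SD in the same order. Hif1a made 74.6 ± 4.18% against 63.2 ± 4.91% of the Hif1a and Epas1 transcripts. By mean level per kb, the highest member was Aldoa in libraries labelled Axin2-, at 121 CPM per kb. The authors list Aldoa under a gene identifier other than that of the gene model whose exon length was used here. Its level per kb and the aldolase shares are therefore uncertain. In libraries labelled Axin2+ the order of the leading pair depended on the exon lengths. Aldoa averaged 153 and Ldhb 138 CPM per kb there with basic lengths, but 95.7 and 114 CPM per kb with comprehensive lengths, and in mouse 3 Ldhb was above Aldoa with either. With basic lengths Adm ranked 17 in libraries labelled Axin2+ and 4 in libraries labelled Axin2-, and Pfkfb3 13 and 27 in that order; with comprehensive lengths these ranks were 15 and 3 for Adm, and 14 and 26 for Pfkfb3.

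**Figure D4:**
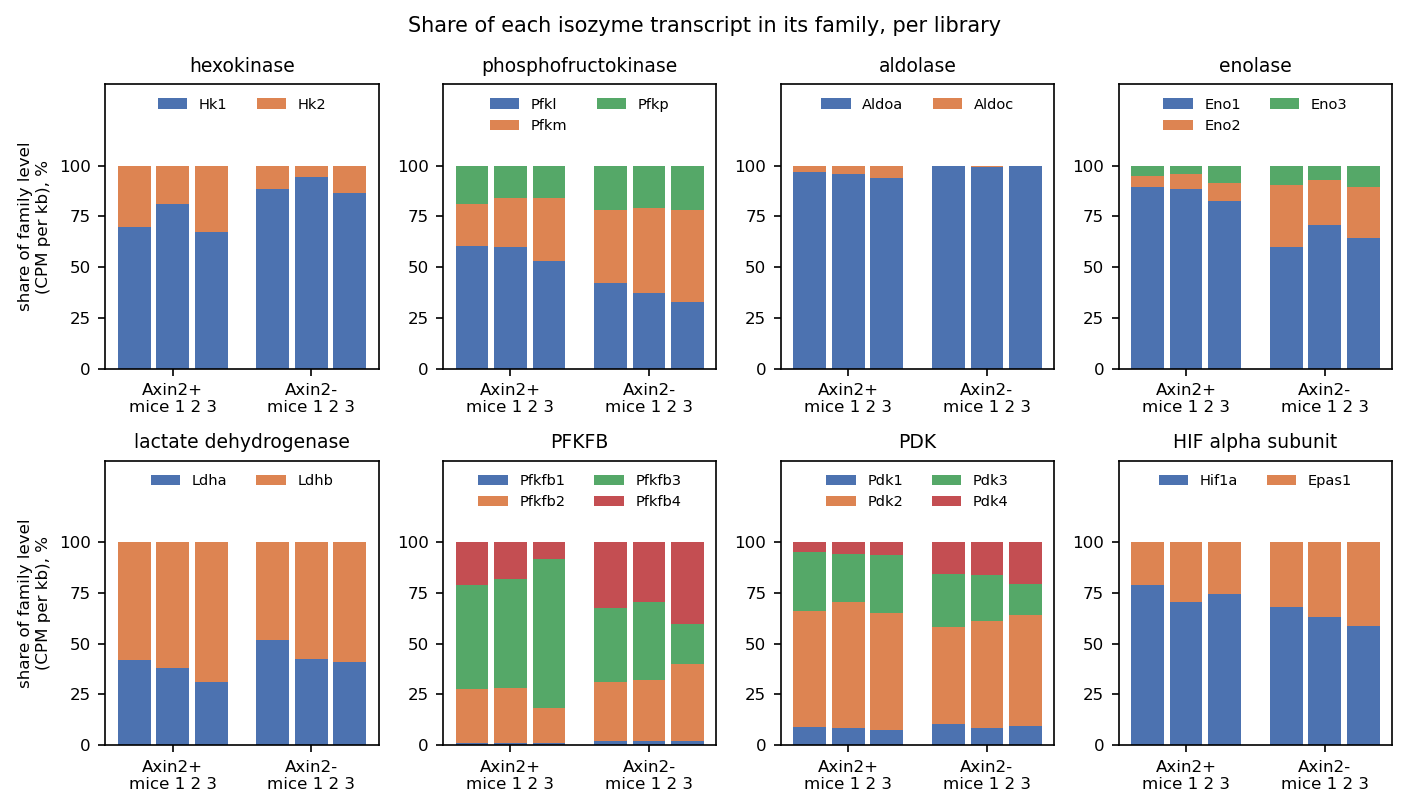
Share of each isozyme transcript in the summed level of its family (CPM per kb of exon, percent), 1 bar per library, libraries labelled Axin2+ left of those labelled Axin2-. The Eno2, Pfkm and Pdk4 bars are shorter and the Pfkl, Hk2 and Pfkfb3 bars longer in all libraries labelled Axin2+ than in any labelled Axin2-.

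A wider list of 76 further genes of glucose, pyruvate and oxygen handling was set beside the members. These genes were chosen for their function, but with earlier results of these data known. All were found, 4 under an older symbol, and 71 were tested. Of these 13 were higher, 12 lower and 46 did not pass, with a median log2 fold change of 0.16. The calls made up 35.2% of the tested genes of this list, beside 27.3% over all genes tested (14.5% higher and 12.8% lower). With library-size scaling 21 were higher and 6 lower. The lower calls numbered 4 and 7 without the libraries labelled Axin2+ of mice 2 and 3, and 5 without that labelled Axin2- of mouse 1. Arnt2, a partner of HIF alpha subunits in neural tissue, rose 10.1-fold, at 104, 135 and 118 CPM in libraries labelled Axin2+, against 14.3, 10.7 and 10.3 CPM in libraries labelled Axin2-, with a log2 fold change of 3.34 ± 0.19 (SE) and an edgeR adjusted p of 0.000192. Arnt, the general partner, fell slightly, at 101, 104 and 100.1 CPM in libraries labelled Axin2+, against 146, 142 and 139 CPM in libraries labelled Axin2-, with a log2 fold change of -0.49 ± 0.10 (SE) and an edgeR adjusted p of 0.0102. It did not pass with library-size scaling (0.0715) or without the Axin2+ library of mouse 2 (0.0519). Egln1, the main prolyl hydroxylase acting on HIF alpha, rose 2.36-fold, at 159.7, 188 and 139 CPM in libraries labelled Axin2+, against 73.0, 80.1 and 53.5 CPM in libraries labelled Axin2-, with a log2 fold change of 1.24 ± 0.19 (SE) and an edgeR adjusted p of 0.00374.

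Pcx, the pyruvate carboxylase that feeds oxaloacetate into mitochondria, rose 9.73-fold, at 195, 218 and 142 CPM in libraries labelled Axin2+, against 13.5, 26.0 and 17.5 CPM in libraries labelled Axin2-, with a log2 fold change of 3.28 ± 0.29 (SE) and an edgeR adjusted p of 0.000546. Car12, a membrane carbonic anhydrase, rose 7.83-fold to 13.2 ± 1.89 CPM in libraries labelled Axin2+, against 1.68 ± 0.398 CPM in those labelled Axin2- (SD, n = 3 each; edgeR adjusted p = 0.000632). Its relative Car9, a much used hypoxia marker, was low in both fractions, at 2.57, 0.85 and 1.36 CPM in libraries labelled Axin2+, against 0.467, 0.384 and 0.556 CPM in libraries labelled Axin2-. These groups did not overlap, with a log2 fold change of 1.76 ± 0.58 (SE), but Car9 did not pass (edgeR adjusted p = 0.0599). It passed with library-size scaling (edgeR adjusted p = 0.0423) and with DESeq2 (adjusted p = 0.0154). Genes that act on collagen were among the lower ones with the smallest p. Lox, which crosslinks collagen, averaged 10.9 ± 1.04 CPM in libraries labelled Axin2+, against 45.2 ± 11.1 CPM in libraries labelled Axin2-. Plod2, which hydroxylates collagen lysines, averaged 18.5 ± 3.42 CPM in libraries labelled Axin2+, against 72.8 ± 19.1 CPM in libraries labelled Axin2- (SD, n = 3 each; edgeR adjusted p = 0.000910 for Lox and 0.00142 for Plod2). Stromal fibroblast markers fell in the same libraries. Pkm, the pyruvate kinase of most tissues, listed under its older symbol Pkm2, stood at 380.0, 309 and 333 CPM in libraries labelled Axin2+, against 324, 358 and 265 CPM in libraries labelled Axin2-. Bpgm, the bisphosphoglycerate mutase, averaged 10.1 ± 1.02 CPM in libraries labelled Axin2+, against 8.47 ± 2.29 CPM in libraries labelled Axin2-. Neither passed (edgeR adjusted p = 0.647 and 0.487). Slc16a1, the monocarboxylate carrier MCT1, stood at 89.8, 26.3 and 34.5 CPM in libraries labelled Axin2+, against 24.4, 20.6 and 19.7 CPM in libraries labelled Axin2-, and the library of mouse 1 labelled Axin2+ stood apart. It did not pass (edgeR adjusted p = 0.0799), and leaving out the Axin2+ library of mouse 2 made it pass (0.0458). Slc16a1 passed with DESeq2 as well (adjusted p = 0.0183).

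The authors' deposited table holds 34 of the members, of which 18 had an FDR at or under 0.05, 13 higher and 5 lower in the Axin2+ fraction. No member's call in the authors' deposited table differed from the call given here.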

How the data were processed

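Deposited by the authors were raw read counts by gene symbol in 6 libraries, with a comparison table of log2 fold changes and FDR-adjusted p-values, per the file headers. The submitters' processing notes list STAR 2.5.3a, edgeR 3.22.5, featureCounts 1.5.3, StringTie 1.3.3, bcl2fastq 2.20.0.422 and the build mm10; neither annotation nor strand setting is stated there. Counts were filtered with filterByExpr, scaled by TMM and tested with robust quasi-likelihood F tests in edgeR 4.0.16 (R 4.3.3), Axin2+ against Axin2-, over 16896 genes with Benjamini-Hochberg adjustment at 0.05. The SE is the log2 fold change divided by the root of F. DESeq2 1.42.0, other scalings and filters, a mouse block and left-out libraries were alternatives. Ribosomal RNA genes took 14.7 to 23.8% of the counts. The labels number libraries by mouse, which would pair them. The correlation across genes of their deviations from the mean of each fraction was 0.31, 0.03 and -0.11 in mice 1, 2 and 3. Between libraries of different mouse numbers it ran from -0.29 (Axin2+ of mouse 1, Axin2- of mouse 2) to 0.31 (Axin2+ of mouse 3, Axin2- of mouse 2). These values therefore do not bear out the pairing. Exon lengths and positions are from GENCODE M21 (GRCm38, the assembly of mm10; basic set), and promoters from RefSeq. The members and lists were chosen with earlier results of these data known. Named are all members, Axin2, the 3 genes of the wider list with the smallest p in each direction, and Pkm, Bpgm, Slc16a1, Egln1, Arnt and Car9; 1 gene that this rule names is not reported here.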

Additional observations from a re-analysis of the deposited data

How the results depend on the processing

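Under 18 alternatives no called member changed direction, and 5 of 18 called members (Aldoc, Eno2, Ldhb, Adm and Hif1a) passed in every alternative, while Hk2, Ldha, Pfkfb3 and Pdk4 were lost only when both libraries of a mouse were left out. With 1 library left out, 7 to 12 members were higher and 3 to 4 lower, and 11 to 14 genes of the wider list were higher and 4 to 9 lower. With both libraries of a mouse left out these ranges were 5 to 8 and 2 to 4 for members, and 8 to 12 and 3 to 6 for the wider list; fewer libraries leave less power. Library-size scaling gave 15 and 3 members, and 21 and 6 genes of the wider list; DESeq2 gave 13 and 5 members, but 21 higher genes of the wider list. With the mouse as a replicate block, 11 members were higher and 4 lower, since Gpi1, Pgk1 and Vegfa did not pass, and no other member call changed; the wider list gave 13 and 9. The log2 fold change of Gapdh, -0.03 in the main comparison, turned positive in 5 alternatives, at 0.14 with library-size scaling and 0.25 without both libraries of mouse 2, and ran from -0.13 to 0.18 with 1 library left out, and that of Pgam1, 0.01, turned negative in 5, at -0.037 with upper quartile scaling, -0.0063 with a minimum of 1 CPM and -0.043 without both libraries of mouse 1, and ran from -0.10 to 0.092 with 1 library left out; neither passed in any. With exon lengths of the comprehensive annotation, an alternative chosen after seeing the data, the mean share of Eno2 was 8.40% in libraries labelled Axin2+ and 28.2% in those labelled Axin2-, and that of Hk2 38.2% and 15.5% in that order. Depth limits Pgam2, whose 5 reads over all 6 libraries were too few to test.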

Other observations

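The carboxykinases that start glucose synthesis from oxaloacetate are part of the wider list and of its counts above. They were picked for description after their values were seen. Pck1, the cytosolic enzyme, had 116, 62 and 103 reads in libraries labelled Axin2+ against 3, 4 and 7 in libraries labelled Axin2-, with a log2 fold change of 4.20 ± 0.64 (SE) and an edgeR adjusted p of 0.00393; it passed in 18 of 18 other settings. Pck2, the mitochondrial enzyme, averaged 28.5 ± 6.28 CPM in libraries labelled Axin2+, against 34.8 ± 5.7 CPM in libraries labelled Axin2- (SD, n = 3 each), and did not pass (edgeR adjusted p = 0.341).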
